A study of Homo sapiens with 4 samples.

Results

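The genes described here encode 10 enzymes that make serine, one-carbon units, asparagine and proline: PHGDH, PSAT1, PSPH, SHMT2, MTHFD2, MTHFD1L, ALDH1L2, ASNS, ALDH18A1 and PYCR1. They were taken by gene symbol from the probe table of the array platform, and all 10 were measured, by 13 of the 28264 probes, among 19090 genes in all. The arrays came from QGP-1 cells, an established human line from a pancreatic neuroendocrine tumour. In one group the cells were held for 24 h in RPMI-1640 with 0.1% fetal bovine serum plus medium conditioned by pancreatic stellate cells, which lay down the fibrous matrix of that organ (PSC medium). In the other group (mock) they were held equally long in RPMI-1640 with that serum level and no conditioned medium. Each group had 2 arrays, and the labels do not say whether these came from separate cultures, so the spread within a group may be technical. A p-value here rests on that spread together with a spread pooled over all genes. The labels do not say whether mock cells were given anything in place of the conditioned medium, or from whom the stellate cells came.

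As background, serine is built from a glycolytic intermediate by PHGDH, PSAT1 and PSPH in turn. In mitochondria SHMT2 splits serine into glycine and a one-carbon unit carried on folate, which MTHFD2 oxidises, and which MTHFD1L releases as formate for purine synthesis in the cytosol or ALDH1L2 oxidises to carbon dioxide with gain of NADPH. ASNS makes asparagine from aspartate with nitrogen from glutamine, while ALDH18A1 and PYCR1 carry glutamate to proline. Many of these genes are known targets of ATF4, a transcription factor whose translation rises when amino acids run short.

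Median intensity was 800 and 822 on the PSC medium arrays and 662 and 829 on the mock arrays. The arrays were quantile normalized, and levels are log2 of the normalized intensity. Pearson's r across genes, a description in which genes do not count as replicates, was 0.988 for the PSC medium arrays, 0.986 for the mock arrays and 0.978 to 0.981 across the groups. In the deposited values 848 and 175 probes fell short of the floor of 1 on the PSC medium arrays, against 0 and 30 on the mock arrays. Of 9 neuroendocrine markers 7 were measured, 6 of them above the median gene level of 10.13, with somatostatin (SST) among them. Of 10 stellate and fibroblast markers 1 lay above that level. The log2 of their summed intensity was 12.36 and 12.48 on the PSC medium arrays and 12.45 and 12.14 on the mock arrays, so the ranges of the groups overlapped. Of these 10, DES, a muscle and stellate cell filament gene, was the 1 called, and it fell (adjusted p = 0.0243). Its means of 5.17 with PSC medium and 6.66 in mock lay far under the median gene level. The others had log2 fold changes of either sign, such as 0.29 for COL1A1 and -0.25 for PDGFRA, which did not pass. The sums of 3 duct markers were 15.44 and 15.15 with PSC medium and 14.80 and 14.87 in mock. KRT19, a duct keratin, was the 1 called among these 3, and it was higher (adjusted p = 0.0299). Its means were 14.13 with PSC medium and 12.54 in mock. KRT7 did not rise, with means of 14.42 with PSC medium and 14.49 in mock. CFTR had 8.19 and 8.71 with PSC medium and 6.41 and 8.41 in mock, so its groups overlapped. For 4 immune markers the sums were 11.38 and 11.37 with PSC medium and 11.25 and 10.93 in mock, with 0 called. The sums of 4 endothelial and of 4 acinar markers overlapped between the groups. No listed marker was at the floor on any array, and the part of the duct and immune markers in the results on the members was not tested.

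PHGDH was the member that rose with PSC medium, to 3.05 times its mock level, and no member fell. The 4 mitochondrial one-carbon genes and ASNS had higher levels on both PSC medium arrays than on both mock arrays, by 1.59-fold to 1.97-fold, but did not pass the threshold over all genes. PSAT1 and PYCR1 had smaller differences, of 1.28-fold each, and PSPH and ALDH18A1 had levels that overlapped between the groups. Thus 1 of 10 members was called higher and 0 lower by limma at an adjusted p under 0.05, while 1.17% of all genes were called higher and 0.974% lower. With no adjustment, 6 of 10 members were higher and 0 lower at p under 0.05, against 9.84% and 12.7% of all genes. Both PSC medium arrays lay above both mock arrays for 8 of 10 members and 24.5% of all genes. All 10 members lay above the median gene level, and among genes above that level the shares were 1.49% called higher, 11.6% higher at an unadjusted p under 0.05, and 27.5% with groups that did not overlap in that direction. The median log2 fold change was 0.71 over the members and -0.01 over all genes. Since the arrays read RNA of whole cultures, a change in the share of cells that express a gene and a change in its level per cell cannot be told apart.

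**Figure D1:**
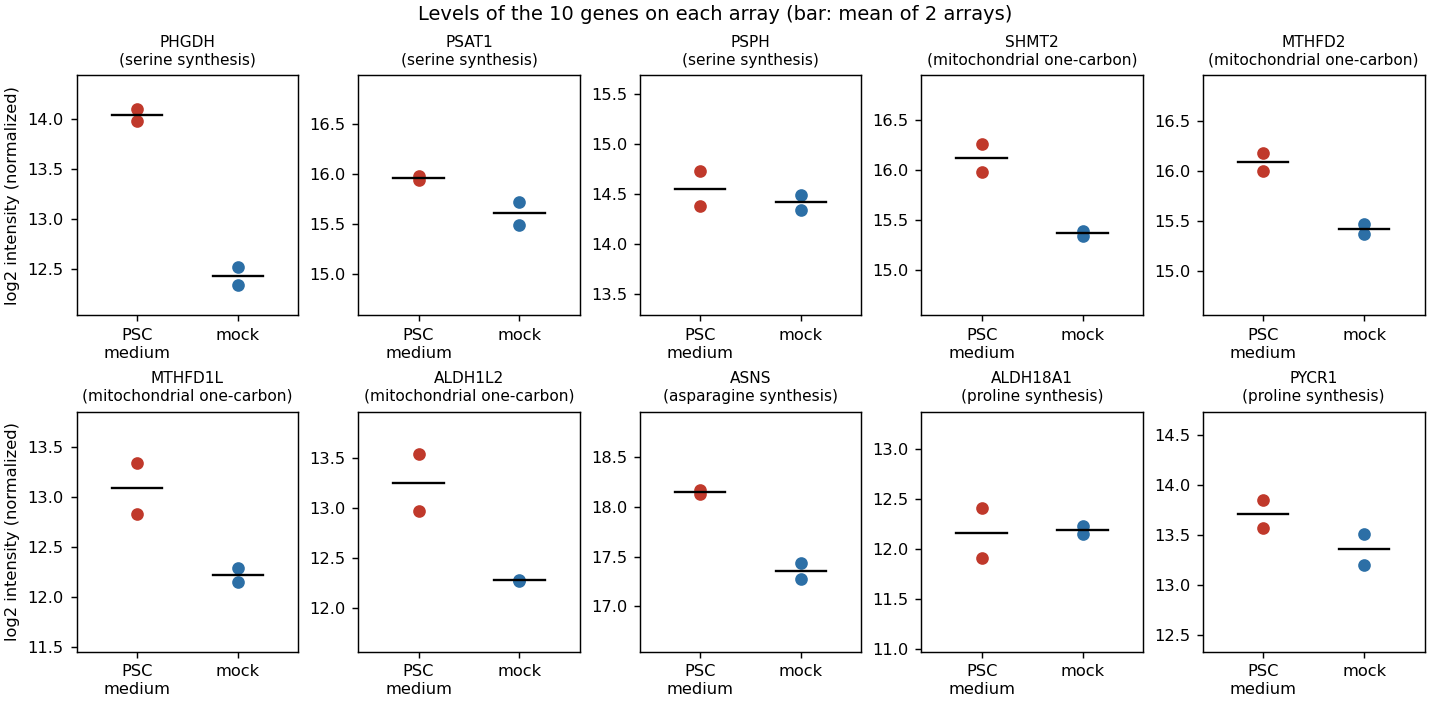
Normalized log2 intensity of each of the 10 genes (vertical axes, all spanning the same range of log2 units) on the 2 PSC medium arrays and the 2 mock arrays, with a bar at each group's mean. The groups lie apart for 8 genes, with the widest gap for PHGDH, and overlap for PSPH and ALDH18A1.

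Promoter windows are shown for the gene that rose and for the 2 members whose window held a match to the core of the C/EBP-ATF response element, the composite site to which ATF4 binds. The sequences are those of RefSeq on GRCh38.p14 and run from 250 bases before to 50 bases after a gene start, 5′ to 3′ on the gene's strand. They are PHGDH (chr1:119711684-119711983, plus strand), MTHFD1L (chr6:150866236-150866535, plus strand) and ASNS (chr7:97872359-97872658, minus strand). Capitals mark a match to TGATGNAA, which was searched on both strands.
PHGDH: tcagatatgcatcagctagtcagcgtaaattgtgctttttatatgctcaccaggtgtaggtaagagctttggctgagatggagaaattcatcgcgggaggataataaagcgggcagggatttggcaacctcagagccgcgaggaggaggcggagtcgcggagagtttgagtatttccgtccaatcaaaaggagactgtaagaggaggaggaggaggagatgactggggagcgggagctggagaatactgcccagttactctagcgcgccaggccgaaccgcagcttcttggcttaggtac
MTHFD1L: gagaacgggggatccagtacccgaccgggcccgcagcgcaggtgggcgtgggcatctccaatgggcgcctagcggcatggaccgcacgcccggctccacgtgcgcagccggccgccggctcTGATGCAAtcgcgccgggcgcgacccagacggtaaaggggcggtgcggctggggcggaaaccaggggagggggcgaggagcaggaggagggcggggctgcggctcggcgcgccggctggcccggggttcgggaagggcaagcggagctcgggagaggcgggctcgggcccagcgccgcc
ASNS: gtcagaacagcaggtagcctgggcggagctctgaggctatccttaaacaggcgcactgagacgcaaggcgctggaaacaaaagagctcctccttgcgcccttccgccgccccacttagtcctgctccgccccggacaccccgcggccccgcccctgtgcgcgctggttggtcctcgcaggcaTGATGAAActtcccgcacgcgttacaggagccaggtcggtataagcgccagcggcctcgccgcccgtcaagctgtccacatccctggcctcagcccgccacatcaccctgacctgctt
In the MTHFD1L window the match TGATGCAA lay at -129 to -122 from the gene start, and in the ASNS window TGATGAAA lay at -68 to -61, both on the gene's own strand. The ASNS promoter is known, from work outside these data, for a nutrient-sensing element that binds ATF4. The RefSeq table held windows for 6 of the 10 members, PHGDH, PSAT1, MTHFD2, MTHFD1L, ASNS and ALDH18A1, and 2 of these 6 had a match in at least 1 window. For MTHFD1L, 3 overlapping windows of alternative starts held the same match and 1 other window held none, and the second ASNS window held none. Of all 35116 windows, 3.62% held a match, and of all 27305 genes with a window, 4.46%. A match describes the letters of this window and not a bound site.

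In serine synthesis the first step was the one called. PHGDH, the dehydrogenase that commits the glycolytic intermediate to serine, had log2 levels of 13.98 and 14.11 on the PSC medium arrays, against 12.53 and 12.34 on the mock arrays. The lower PSC medium array lay 1.45 above the higher mock array, a gap several times the spread within either group. The mean was 14.04 ± 0.09 with PSC medium and 12.43 ± 0.13 in mock (SD, n = 2 each), a log2 fold change of 1.61 ± 0.16 SE (95% interval 1.21 to 2.01, limma adjusted p = 0.0185), and PHGDH ranked 120 of 19090 genes by log2 fold change. In the deposited intensities, before normalization, the PHGDH probe read 16799 and 17840 on the PSC medium arrays and 5051 and 5778 on the mock arrays. The call was lost in 6 of 14 alternative settings, among them each array centred on its median in place of quantile normalization (adjusted p = 0.0513) and any 1 of the 4 arrays left out (adjusted p from 0.135 to 0.337), although the log2 fold change stayed between 1.52 and 1.70 in all 14 alternative settings, in which the adjusted p ranged from 1.04e-12, where all genes shared 1 variance, to 0.337.

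PSAT1, the aminotransferase of the second step, had levels of 15.98 and 15.94 with PSC medium and 15.72 and 15.49 in mock. Both PSC medium values lay above both mock values, by a margin of 0.22. Its log2 fold change was 0.35 ± 0.17 SE (95% interval -0.05 to 0.76, adjusted p = 0.275) and did not pass. A second, dimmer PSAT1 probe had levels of 14.35 and 14.61 with PSC medium against 13.61 and 13.64 in mock, with a log2 fold change of 0.86 ± 0.17 SE (adjusted p = 0.0859 over all 28264 probes). The 2 probes had the same sign but differed in size, and the smaller change is the one that stands for PSAT1 here. PSPH, the phosphatase that frees serine, had levels of 14.73 and 14.38 with PSC medium and 14.34 and 14.50 in mock. The groups overlapped, and the log2 fold change was 0.14 ± 0.19 SE (95% interval -0.32 to 0.59, adjusted p = 0.717). The upper bound of that interval for PSPH lies below the lower bound for PHGDH, while the difference between the 2 changes was not itself tested. The interval of the dimmer PSAT1 probe (0.44 to 1.28) overlaps that of PHGDH. The RefSeq table lists 4 pseudogenes named after PSAT1 and 1 after PSPH. Whether the probes also read those copies was not tested.

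All 4 mitochondrial one-carbon genes had higher levels with PSC medium. SHMT2, the mitochondrial serine hydroxymethyltransferase, had levels of 15.98 and 16.26 with PSC medium and 15.34 and 15.39 in mock. Its lower PSC medium array lay 0.59 above its higher mock array, and its log2 fold change was 0.75 ± 0.17 SE (95% interval 0.33 to 1.17, adjusted p = 0.081). A second SHMT2 probe, dimmer than the first, gave 13.08 and 12.90 with PSC medium against 12.74 and 12.83 in mock. Its groups did not overlap either, but its log2 fold change was 0.21 ± 0.16 SE (adjusted p = 0.495 over all probes), so the size of the SHMT2 difference depended on the probe.

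MTHFD2, the mitochondrial dehydrogenase and cyclohydrolase that oxidises the folate-bound carbon, had levels of 16.19 and 16.00 with PSC medium and 15.47 and 15.37 in mock. The groups were 0.53 apart at their nearest arrays, and the log2 fold change was 0.67 ± 0.16 SE (95% interval 0.27 to 1.07, adjusted p = 0.0917). The RefSeq table lists 7 pseudogenes named after MTHFD2, so this value is uncertain where the probe could read them. MTHFD1L, the mitochondrial synthetase that releases formate, had levels of 13.34 and 12.83 with PSC medium and 12.15 and 12.29 in mock. The PSC medium arrays differed from each other by more than the mock arrays did, and the log2 fold change was 0.86 ± 0.22 SE (95% interval 0.34 to 1.39, adjusted p = 0.0957).

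ALDH1L2, the mitochondrial formyl-folate dehydrogenase, had levels of 13.54 and 12.96 with PSC medium and 12.27 and 12.28 in mock. Its mock arrays were nearly equal, its PSC medium arrays were the farthest apart of any member (SD 0.41), and its log2 fold change of 0.98 ± 0.23 SE was the second largest of the 10 (95% interval 0.43 to 1.53, adjusted p = 0.0829). A dimmer ALDH1L2 probe gave 9.23 and 9.36 with PSC medium against 8.28 and 8.05 in mock, a log2 fold change of 1.13 ± 0.17 SE (adjusted p = 0.0647 over all probes). The 2 ALDH1L2 probes thus gave the same direction and sizes that differed by less than the standard error of the brighter probe. For all 4 genes the 95% interval of the log2 fold change lay above 0, and for none of them was the adjusted p below 0.05.

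**Figure D2:**
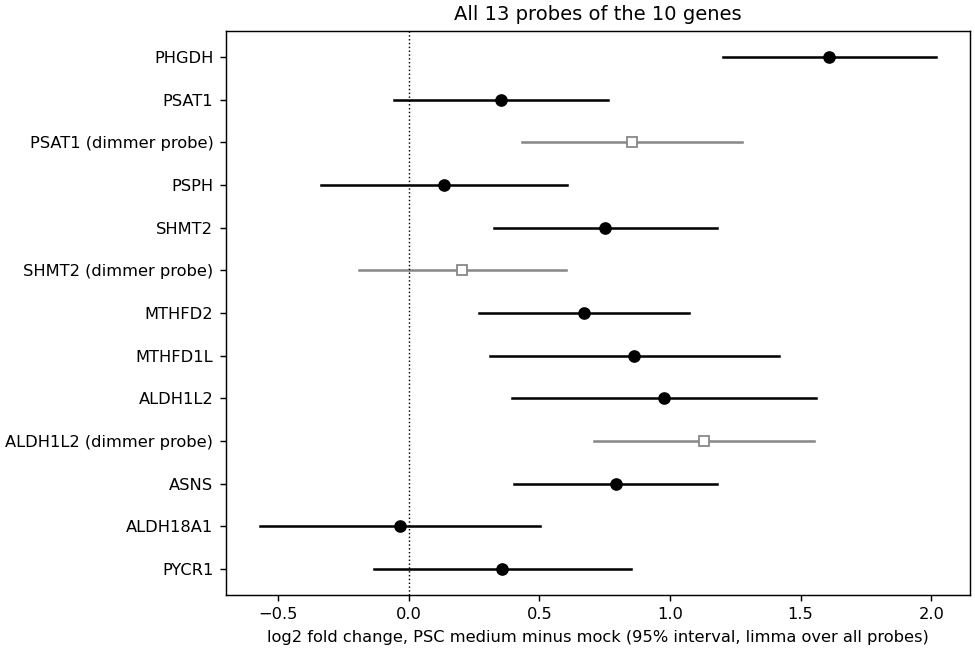
Log2 fold change, PSC medium minus mock, of all 13 probes of the 10 genes, with 95% intervals from limma fitted over all 28264 probes. Filled circles are the probes that stand for a gene and open squares the dimmer second probes, which gave a larger change for PSAT1 (0.86 against 0.35) and a smaller one for SHMT2 (0.21 against 0.75).

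Several of these enzymes have a counterpart that runs the same step in another compartment, or a paralog in the same one, and their values were set beside the members after they had been seen. SHMT1, the cytosolic hydroxymethyltransferase, had levels of 12.10 and 11.91 with PSC medium and 12.35 and 12.23 in mock, a log2 fold change of -0.29 ± 0.16 SE (adjusted p = 0.359). Its direction was opposite to that of SHMT2, and the difference between the 2 log2 fold changes was 1.04. That difference rests on the brighter SHMT2 probe, and the dimmer one had a log2 fold change of 0.21. MTHFD2L, a mitochondrial paralog of MTHFD2, fell to 8.72 and 8.63 with PSC medium, against 9.84 and 9.80 in mock (-1.15 ± 0.15 SE, adjusted p = 0.0335), which set it 1.82 apart from MTHFD2. Both groups' MTHFD2L levels lay under the median gene level, and its second, dimmer probe had a log2 fold change of -0.31 ± 0.28 SE, which did not pass (adjusted p = 0.562 over all probes).

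MTHFD1, the cytosolic enzyme that takes formate up again, had levels of 11.50 and 11.64 with PSC medium and 11.11 and 11.36 in mock, a log2 fold change of 0.34 ± 0.17 SE (adjusted p = 0.31), 0.53 below that of MTHFD1L. ALDH1L1, the cytosolic formyl-folate dehydrogenase, was dim, with levels of 6.16 and 5.91 with PSC medium and 5.88 and 5.81 in mock (0.19 ± 0.17 SE, adjusted p = 0.554). In each of these 4 pairs the log2 ratio of the member to its counterpart was higher on both PSC medium arrays than on both mock arrays. For MTHFD2 over MTHFD2L, with the mock mean set to 0, the ratio was 1.87 and 1.77 with PSC medium and 0.03 and -0.03 in mock. For MTHFD1L over MTHFD1 it was 0.85 and 0.20 with PSC medium and 0.06 and -0.06 in mock, so its arrays differed most. With 2 arrays against 2, the two-sided exact permutation p of such a ratio cannot go below 0.333, which all 4 pairs gave.

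**Figure D3:**
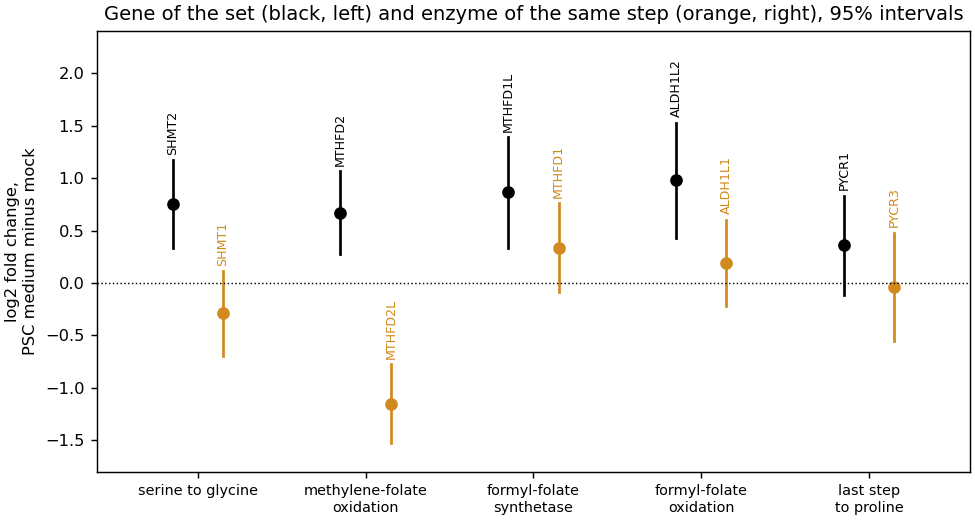
Log2 fold change, PSC medium minus mock, with 95% intervals from limma, of 5 of the 10 genes (black, left) and of an enzyme of the same step (orange, right). The black points lie above the orange ones in every pair, most for MTHFD2 against MTHFD2L, whose interval lies wholly under 0. For PYCR1 against PYCR3 the log2 ratio on single arrays overlapped between the groups.

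ASNS, asparagine synthetase, had levels of 18.17 and 18.13 on the PSC medium arrays, against 17.43 and 17.27 on the mock arrays. The arrays of each group lay close together and the groups were 0.69 apart at their nearest, a gap that among the members was exceeded by PHGDH alone. The log2 fold change was 0.79 ± 0.16 SE (95% interval 0.40 to 1.18), and with an adjusted p of 0.0663 from limma it was the member nearest to the threshold among those that did not pass. In deposited intensities the ASNS probe read 300063 and 305915 with PSC medium and 150168 and 172720 in mock. The RefSeq table lists 5 pseudogenes named after ASNS. ATF4, the factor known to act on this promoter, had levels of 17.70 and 17.84 with PSC medium and 17.18 and 17.59 in mock (0.38 ± 0.20 SE, adjusted p = 0.312). Its groups did not overlap, but its mock arrays differed from each other by more than the gap between the groups, and a dimmer second ATF4 probe had a log2 fold change of 0.09. The mRNA level of ATF4 does not measure its translation.

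Neither gene of the proline branch passed. ALDH18A1, the synthase that starts proline and ornithine synthesis from glutamate, had levels of 12.41 and 11.91 with PSC medium and 12.23 and 12.16 in mock. Both mock values lay between the PSC medium values, and the log2 fold change was -0.03 ± 0.21 SE (95% interval -0.55 to 0.48, adjusted p = 0.947). That interval still holds levels from 0.685 to 1.39 times the mock level. The sign of the ALDH18A1 change was positive in 3 of 14 alternative settings. PYCR1, the mitochondrial reductase of the last step, had levels of 13.86 and 13.57 with PSC medium and 13.51 and 13.20 in mock. The groups were 0.06 apart, less than the spread within either, and the log2 fold change was 0.36 ± 0.19 SE (95% interval -0.11 to 0.83, adjusted p = 0.333). With 1 array left out it ranged from 0.20, without mock array 2, to 0.51, without mock array 1. PYCR3, a cytosolic reductase of the same step named after its values were seen, had -0.03 ± 0.21 SE (adjusted p = 0.946). With the mock mean set to 0, the log2 ratio of PYCR1 to PYCR3 was 0.70 and 0.09 with PSC medium and 0.35 and -0.35 in mock. For this pair the groups overlapped (two-sided exact permutation p = 0.667).

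The 5 members between the called PHGDH and the 4 smallest changes were near the threshold, and their calls depended on the setting. SHMT2, MTHFD2, MTHFD1L, ALDH1L2 and ASNS had adjusted p from 0.0663 to 0.0957, and all 5 passed in 5 of 14 alternative settings: with a constant of 50 added before log2, without genes under the median level, with a variance trend, with a robust variance prior, and at a threshold of 0.1. In these settings 6 of 10 members were called higher, while the calls over all genes rose as well, to between 590 and 973 higher. The log2 fold changes of these 5 members were positive in all 14 settings, from 0.48 for SHMT2 to 1.27 for ALDH1L2.

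In 7 lists of neighbouring pathways, 2 of 98 measured genes rose, 2 fell and 94 did not pass, with a median log2 fold change of -0.03. These are shares of 2.04% each way, near the 1.17% higher and 0.974% lower over all genes, so the counts set these lists apart in neither direction. Both that rose were in the list of asparagine, aspartate and glutamate genes, where 2 of 11 rose, 0 fell and the median was 0.30. At an unadjusted p under 0.05 in limma, 5 of these 11 were higher and 1 lower, against 9.84% and 12.7% of all genes. Both PSC medium arrays lay above both mock arrays for 8 of the 11 and below them for 1, against 24.5% and 29% of all genes. GOT1, the cytosolic aminotransferase that interconverts aspartate and glutamate, rose to 15.83 and 15.85 with PSC medium, against 14.69 and 14.57 in mock (1.21 ± 0.16 SE, adjusted p = 0.0299). ASS1, which joins aspartate to citrulline, rose to 13.36 and 13.50 with PSC medium, against 12.49 and 12.37 in mock (1.00 ± 0.16 SE, adjusted p = 0.0444). BCAT1, the cytosolic branched-chain aminotransferase, had a log2 fold change of 0.65 ± 0.17 SE (adjusted p = 0.101).

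Of 15 other folate and one-carbon enzymes, 0 rose and 1 fell (median -0.21). That gene was MTHFD2L, and next came DHFR2, a dihydrofolate reductase paralog, at -0.52 and AMT, the aminomethyltransferase of glycine cleavage, at -0.50 (adjusted p = 0.127 and 0.147). Both had lower levels on both PSC medium arrays than on both mock arrays, as did 7 of the 15 in all, against 29% of all genes. With no adjustment, 0 of the 15 were higher and 3 lower at p under 0.05 in limma, against 9.84% and 12.7% of all genes. Of 12 genes of serine and glycine use, 0 rose and 1 fell (median 0.05). It was GATM, the first enzyme of creatine synthesis, at levels of 5.32 and 5.25 with PSC medium and 6.41 and 6.54 in mock (-1.19 ± 0.16 SE, adjusted p = 0.0323), values far under the median gene level, and a still dimmer second probe had -1.30 ± 0.39 SE (adjusted p = 0.149 over all probes). AGXT2, a mitochondrial aminotransferase, had 0.73 and SPTLC2, a subunit of the palmitoyltransferase that uses serine for sphingolipids, had -0.54 (adjusted p = 0.16 and 0.166).

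Of 14 methionine cycle genes and 12 purine synthesis genes, 0 rose and 0 fell in limma, with medians of -0.08 and 0.04. At an unadjusted p under 0.05 there were 1 higher and 1 lower in the first list and 2 higher and 1 lower in the second, against 9.84% higher and 12.7% lower over all genes. MTR, the folate-dependent methionine synthase, had a log2 fold change of -0.75 ± 0.18 SE (adjusted p = 0.0924), MAT2B 0.62 and GNMT -0.38. In purine synthesis, IMPDH2, the dehydrogenase that leads to guanine nucleotides, had 0.84 ± 0.15 SE (adjusted p = 0.0566), PRPS1, which makes the ribose donor, 0.95 ± 0.21 SE (adjusted p = 0.0744) and IMPDH1 -0.42. The 2 IMPDH genes thus had opposite signs, neither of them past the threshold.

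Of 13 proline and ornithine genes, 0 rose and 0 fell in limma (median 0.03), and 1 gene each way had an unadjusted p under 0.05, against 9.84% higher and 12.7% lower over all genes. ARG2, the mitochondrial arginase that yields ornithine, had levels of 14.93 and 14.55 with PSC medium and 13.69 and 13.67 in mock (1.06 ± 0.19 SE, adjusted p = 0.0548). ALDH4A1, the dehydrogenase of proline breakdown, had 9.69 and 9.63 with PSC medium and 10.48 and 10.50 in mock (-0.83 ± 0.15 SE, adjusted p = 0.0567). P4HA1, a prolyl hydroxylase subunit of collagen synthesis, had 0.38 (adjusted p = 0.266). Of 21 transporters and carriers, 0 rose and 0 fell in limma (median -0.08), and an unadjusted p under 0.05 was found for 2 higher and 2 lower genes, close to the same shares over all genes. SLC6A9, a glycine transporter, had 1.09 ± 0.19 SE (adjusted p = 0.0518), SLC36A4, a proline and tryptophan transporter, -0.74 ± 0.16 SE (adjusted p = 0.0742) and SLC1A5, a carrier of glutamine, serine and asparagine, 0.60 ± 0.19 SE (adjusted p = 0.138). The 4 calls in these lists were all lost in 9 of 14 alternative settings, among them quantile normalization replaced or left out and each omission of 1 array.

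**Figure D4:**
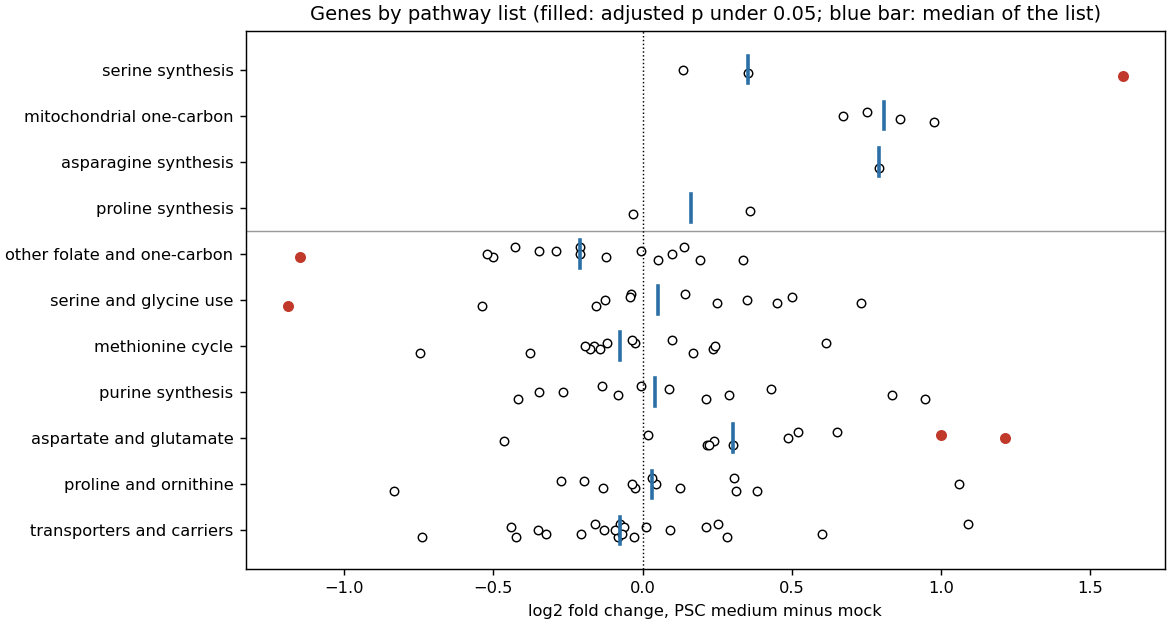
Log2 fold change, PSC medium minus mock, of each measured gene by pathway list, with the 10 genes in the upper 4 rows and 7 neighbouring lists under the line; filled points passed an adjusted p of 0.05 and blue bars mark list medians. The 4 mitochondrial one-carbon genes lie between 0.67 and 0.98, while the 15 other folate and one-carbon genes have a median of -0.21.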

How the data were processed

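Gene expression was measured on 4 one-colour arrays, 2 per group. Per the labels' protocols, total RNA was amplified with an amino allyl kit and coupled to the dye Cy5. The authors deposited linear intensities of 28264 probes. Values below 0 show that a background had been subtracted, while scanner, software and any scaling are not given in the sources used here. Array medians differed by 0.325 on the log2 scale, so log2 values were taken after quantile normalization and a floor of 1. Probes were named by the platform's table, and the 25893 with a gene all matched RefSeq by Entrez ID. No probe had several genes and 2371 had none. The brightest probe stood for each of 19090 genes, 5751 of which had more than 1.

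The comparison used limma 3.58.1 (R 4.3.3), a two-sided moderated test by lmFit and eBayes. Its p-values were adjusted over all genes by Benjamini and Hochberg's method, at a threshold of 0.05. The fit had 2 residual and 3.97 prior degrees of freedom. The number of arrays limits the precision. Unless another fit is named, every adjusted p is from this one. The other probes of a gene were taken from the same fit over all probes. The members, the 7 lists and the tests were chosen with earlier results of these data known. All 10 members were described, with up to 3 genes of each list by smallest p and ATF4. Enzymes of the same step, and the ratios to them, were chosen after their values were seen. The procedure was tested on simulated data. Plots were made in Python 3.11.15 with matplotlib 3.10.9.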

Additional observations from a re-analysis of the deposited data

How the results depend on the processing

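Over 14 alternative settings, 136 of 140 log2 fold changes of members kept their sign. The exceptions were PSPH without PSC medium array 1 (-0.0367, the lowest value with 1 array left out, and 0.31 the highest) and ALDH18A1 without normalization (0.0172), without mock array 1 (0.00440) and without PSC medium array 2 (0.21, the highest value with 1 array left out, and -0.28 the lowest). Members called higher, 1 in the setting reported, numbered 0 with median centring, 0 with any 1 array left out, and 6 with a constant of 50, without dim genes, with a variance trend, with a robust prior and at a threshold of 0.1. Over all genes, 223 higher and 186 lower became 35 and 78 without normalization, 29 and 62 with median centring, 759 and 981 with a constant of 50, and 824 and 974 without dim genes. They became 60 and 33 with probes averaged, 109 and 70 with all probes fitted, 590 and 701 with a trend, 973 and 1267 with a robust prior, and 691 and 855 at a threshold of 0.1. With 1 array left out they ranged from 0 to 21 higher and from 0 to 15 lower. The 2 higher and 2 lower calls in the neighbouring lists became 0 and 0 without normalization, with median centring, with averaged probes, with all probes fitted and without any 1 array. They became 7 and 5 with a constant of 50, 6 and 5 with a trend, and 10 and 5 with a robust prior. At a threshold of 0.1 they were 6 and 5, and without dim genes 8 and 3. All genes had a median change of -0.10 with median centring and of 0.03 without normalization, on the log2 scale.

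Without dim genes the prior degrees of freedom were infinite, so every gene had 1 shared variance, and with a robust prior they were 22.82, against 3.97. Those calls therefore rest mostly on the spread pooled over genes. The fit reported also gave that pooled spread the larger weight, with 3.97 prior against 2 residual degrees of freedom, though less so. Leaving out 1 array leaves 1 residual degree of freedom, and the lone array is assumed to vary like the other group.

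Arrays share the replicate numbers 1 and 2, but same-numbered arrays did not clearly deviate together (r = 0.07 across genes). With the replicate number as a block, 59 genes were higher and 25 lower, 0 members and 0 genes of the neighbouring lists were called in either direction, and PHGDH had an adjusted p of 0.0541. No other member's call changed under the block.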
